A study of Mus musculus with 12 samples.

Results

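The inner part of the mouse kidney, the medulla, was set against its outer part, the cortex, in whole tissue. Of the 12 arrays in the series, the 4 with a kidney tissue label were taken: 2 of medulla and 2 of cortex. They were chosen by the region and source labels, with earlier results of these data known. Affymetrix whole-genome arrays of the 3' type measured total RNA from each. The other 8 arrays hold cultured renal progenitor cells and organoids of the same 2 regions, at 2 arrays per region and stage, and are used here for the shared estimate of the spread and for a comparison at the end. The labels name no strain, age, sex, treatment or genetic change for any group. They call the replicates biological, the series text speaks of 2 biological samples, and neither says whether medulla 1 and cortex 1 came from the same animal or whether animals were pooled. The p-values below therefore speak for these samples only, and they use a spread pooled over the tissue and culture groups of all 12 arrays.

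The kidney cortex holds the glomeruli and most of the proximal tubule, which reclaims glucose, amino acids and phosphate from the filtrate. The medulla holds the loops of Henle, the straight end of the proximal tubule and the collecting ducts, which together build and use a gradient of salt and urea to concentrate urine. Its tip, the papilla, is hyperosmotic and poor in oxygen, and it is covered by an epithelium that continues into the urothelium, the stratified lining of the renal pelvis and ureter.

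The values are log2 MAS5 signals per probe set as deposited, 1 probe set per gene. A difference is medulla minus cortex on the log2(signal + 15.1) scale, where 15.1 signal units is the 25th percentile of all values, and its error is the standard error (SE) of a limma model over all 12 arrays. A gene is called where limma's p, adjusted by the Benjamini-Hochberg method over all 12998 genes tested, is below 0.05. The offset shrinks differences of dim genes, so the fold changes of dim genes depend on it. Array medians lay between 6.03 and 6.23 on the log2 scale in tissue. The 2 medulla arrays were less alike than the 2 cortex arrays, with a median absolute difference between replicates of 0.24 for medulla and 0.17 for cortex. Across genes, medulla 2 correlated at 0.966 with medulla 1, against 0.968 and 0.970 with the cortex arrays, and medulla 1 correlated at 0.953 and 0.961 with the cortex arrays. Genes are not independent replicates, so these values only describe the arrays. The 3' minus 5' signal of the beta-actin control probe sets, a measure of RNA integrity and labelling length, was 0.94 and 1.63 on the medulla arrays, against 1.11 and 1.26 on the cortex arrays, and its part in the results was not tested.

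Medulla tissue had 39 genes called higher than in cortex tissue (0.300% of genes tested) and 1 called lower (0.00769%). The 39 included epithelial lining genes (uroplakins, keratins and Psca), marker genes of the thin limbs of the loop of Henle (Fst and Bst1), genes of osmolyte uptake and stress (Slc5a3 and Hspa1b) and 2 glycolytic enzymes (Hk1 and Aldoc). Their differences lay between 0.74 and 5.23, and 35 of the 39 were at least 2-fold. The arrays of the 2 regions did not overlap for any of the 39. The 39 were chosen by their difference on these same arrays, so this is only a description. Of all genes, 23.9% had both medulla arrays above both cortex arrays and 21.1% both below. Without adjustment, 847 genes (6.52%) were higher and 328 (2.52%) lower at p below 0.05, and the median difference of all genes was 0.01. Of the 39, 14 stood on a gene list drawn up for kidney cell types and pathways and 25 on none. In whole tissue, fewer cells of a type and less RNA per cell cannot be told apart.

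**Figure D1:**
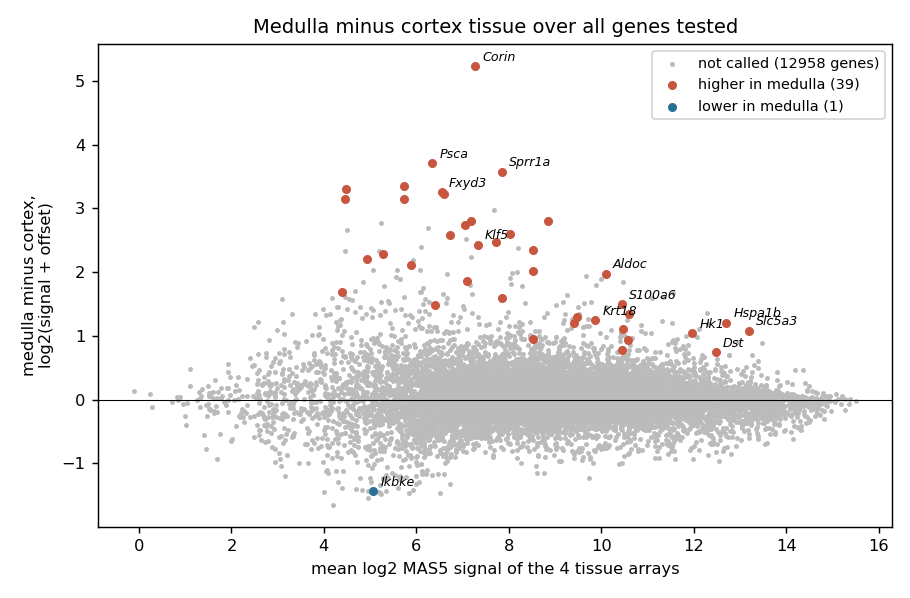
Medulla minus cortex difference on the log2(signal + offset) scale (vertical axis) against the mean log2 MAS5 signal of the 4 tissue arrays (horizontal axis), 1 point per gene for 12998 genes. The 39 genes called higher in medulla run from 0.74 to 5.23, and the called differences near 1 belong to bright genes such as Hk1 and Slc5a3.

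Corin, a serine protease that activates atrial natriuretic peptide, showed the largest called difference. Its log2 signal was 11.28 and 9.40 on the medulla arrays, against 4.97 and 3.46 on the cortex arrays, a difference of 5.23 ± 0.54 (adjusted p = 0.00205). Both cortex values lay below the array median, and the difference was 6.04 with an offset of 1 signal unit and 3.94 with an offset of the median signal. Fxyd3, a member of the family of small regulators of the sodium pump, had the smallest adjusted p. Its signal was 8.12 and 8.87 in medulla, against 4.79 and 4.40 in cortex, a difference of 3.26 ± 0.21 (adjusted p = 6.02e-05). Scel, which encodes the cornified-envelope protein sciellin, rose by 2.79 ± 0.49, with 11.29 and 9.30 in medulla and 7.27 and 7.52 in cortex. The call of Scel was lost without medulla 1 (1.81, adjusted p = 0.146), cortex 1 (adjusted p = 0.398) or cortex 2 (adjusted p = 0.137), with an offset of 1 (adjusted p = 0.0506) and with the mean of its probe sets (1.31, adjusted p = 0.150). Uncx, a homeobox factor, rose by 3.15 ± 0.44, with 8.0 and 6.39 in medulla and 1.39 and 2.00 in cortex. Its call was lost with an offset of 1 (adjusted p = 0.0697), without cortex 1 (adjusted p = 0.142) and without cortex 2 (adjusted p = 0.0763). Lypd2, a Ly6-type surface protein, had 9.49 and 7.99 in medulla and 5.6 and 5.61 in cortex, a rise of 2.80 ± 0.45. The call of Lypd2 was lost with an offset of 1 (adjusted p = 0.0941) and without medulla 1, cortex 1 or cortex 2 (adjusted p = 0.159, 0.243 and 0.126). Medulla 1 was the higher medulla array for Corin, Uncx, Lypd2 and Scel, and medulla 2 for Fxyd3. Of all 39 genes, medulla 1 was the higher in 27 and medulla 2 in 12. The mean cortex signal of 19 of the 39 lay below the array median.

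**Figure D2:**
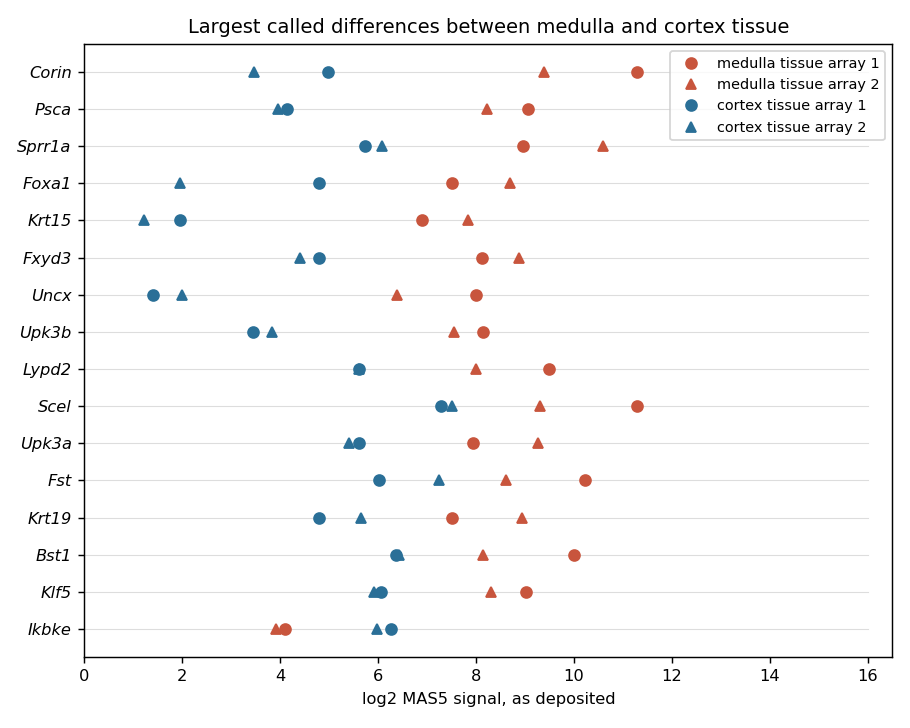
Deposited log2 MAS5 signal (horizontal axis) of the 15 genes with the largest called rises and of Ikbke, the 1 gene called lower, on each tissue array; colour marks the region and marker shape the replicate. For all 15 genes both medulla points lie right of both cortex points, and Ikbke shows the reverse.

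The lining of the papilla and renal pelvis gave more called genes than any other of the 35 lists. The lists were drawn up with earlier results of these data known, so this rank is a description. Of 20 tested genes that mark urothelium and papillary lining, 7 rose and 0 fell, against 0.300% and 0.00769% of all genes. Both medulla arrays were above both cortex arrays for 17 and below both for 0, against 23.9% and 21.1% of all genes. The list median was 1.68, against 0.01 over all genes. Uroplakins form the rigid plaques on the surface of urothelial umbrella cells. Upk3b, which mesothelium also makes, had 8.13 and 7.55 in medulla and 3.45 and 3.83 in cortex and rose by 3.14 ± 0.35 (adjusted p = 0.00293). Upk3a had 7.94 and 9.26 in medulla and 5.61 and 5.41 in cortex and rose by 2.73 ± 0.49, close to the threshold (adjusted p = 0.0476). Its call was lost under 75th percentile scaling, an offset of 1, no filter and the mean of probe sets (adjusted p between 0.0517 and 0.217) and without medulla 2, cortex 1 or cortex 2 (adjusted p = 0.100, 0.330 and 0.183). Upk1b had 8.09 and 8.93 in medulla and 4.46 and 4.88 in cortex and rose by 3.22 ± 0.48. Its call was lost with an offset of 1 (adjusted p = 0.0808) and without medulla 1, cortex 1 or cortex 2 (adjusted p = 0.0507, 0.204 and 0.0832). That probe set is marked as able to cross-hybridize, and 3 other probe sets of Upk1b gave differences of 3.97, 3.95 and 3.13, the first 2 of them called. All 3 uroplakins had cortex signals below the array median on both arrays. Upk2 (1.68 ± 0.54, adjusted p = 0.322) and Upk1a (0.39 ± 0.33, adjusted p = 0.873) did not pass.

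Psca, a surface antigen of urothelium and other epithelia, had 9.06 and 8.22 in medulla, against 4.15 and 3.95 in cortex, and rose by 3.71 ± 0.41 (adjusted p = 0.00271). Sprr1a, a small proline-rich protein of the cornified envelope, had 8.96 and 10.60 in medulla, against 5.73 and 6.08 in cortex, and rose by 3.58 ± 0.38. Krt19, a keratin of simple and transitional epithelia, had 7.51 and 8.94 in medulla, against 4.79 and 5.65 in cortex, and rose by 2.58 ± 0.34. In Sprr1a, Krt19 and Upk3a medulla 2 was the higher medulla array. Krt15, a keratin of basal epithelial cells that stood on no list, had 6.89 and 7.83 in medulla, against 1.95 and 1.22 in cortex, and rose by 3.31 ± 0.40. Krt18, a keratin of simple epithelia named after its values were seen, rose by 1.25 ± 0.16, with 10.44 and 10.56 in medulla and 9.15 and 9.31 in cortex. Without cortex 1 the calls of Krt15, Krt19 and Upk3b were lost (adjusted p = 0.0562, 0.142 and 0.0538). The basal keratin Krt5 (2.18 ± 0.41, adjusted p = 0.0568) and the basal-cell factor Trp63 (1.15 ± 0.49, adjusted p = 0.51) did not pass. Bright lining genes that are also made in collecting ducts differed little: Krt7 (0.46 ± 0.13, adjusted p = 0.258), Cldn4 (0.26 ± 0.23, adjusted p = 0.896) and Lgals3 (0.28 ± 0.14, adjusted p = 0.596).

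Foxa1, Klf5 and Ehf, factors that control transcription in epithelia, rose. Foxa1, a pioneer factor that opens chromatin in endodermal and urothelial cells, had 7.51 and 8.69 in medulla, against 4.78 and 1.96 in cortex, and rose by 3.35 ± 0.39 (adjusted p = 0.00348). Klf5, a zinc-finger factor of the Krüppel-like family that is made in bladder and collecting duct epithelium, had 9.03 and 8.31 in medulla, against 6.06 and 5.91 in cortex, and rose by 2.43 ± 0.22 (adjusted p = 0.000848). Its other 2 probe sets above the filter were dimmer in tissue, gave -0.42 and -0.04 and were not called, and the mean of its probe sets gave 0.66 (adjusted p = 0.429). Ehf, an epithelial factor of the ETS family, had 10.42 and 9.63 in medulla, against 8.76 and 8.82 in cortex, and rose by 1.20 ± 0.20. It was the 1 gene called of 31 renal transcription factors tested, where 0.300% of all genes were called higher. The call of Ehf was lost without medulla 1 (adjusted p = 0.114), cortex 1 (adjusted p = 0.330) or cortex 2 (adjusted p = 0.131) and with the mean of its probe sets (0.76, adjusted p = 0.374). Of the 31 transcription factors, 15 had both medulla arrays higher and 7 both lower, against 23.9% and 21.1% of all genes. The list median was 0.19. The list members Irx1 (0.86 ± 0.21, adjusted p = 0.146) and Irx2 (1.09 ± 0.27, adjusted p = 0.164), Iroquois factors of the loop of Henle, did not pass.

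Promoters of 4 called genes are shown because they pair the factor Foxa1 with 3 epithelial genes that were higher in the same arrays. Each is a window of 300 bases that ends shortly after the gene's start, from RefSeq on GRCm38.p6, read 5′ to 3′ on the gene's strand, with 1 window per gene. Capitals mark matches on either strand to TGTTTAC, a core letter string bound by FOXA factors, or to CCNCNCCC, a GC-rich string of the kind bound by Krüppel-like factors. The Foxa1 promoter lies at chr12:57546062-57546361 on the minus strand, Fxyd3 at chr7:31076648-31076947 on the minus strand, Upk3a at chr15:85016891-85017190 on the plus strand and Krt18 at chr15:102027966-102028265 on the plus strand.
Foxa1: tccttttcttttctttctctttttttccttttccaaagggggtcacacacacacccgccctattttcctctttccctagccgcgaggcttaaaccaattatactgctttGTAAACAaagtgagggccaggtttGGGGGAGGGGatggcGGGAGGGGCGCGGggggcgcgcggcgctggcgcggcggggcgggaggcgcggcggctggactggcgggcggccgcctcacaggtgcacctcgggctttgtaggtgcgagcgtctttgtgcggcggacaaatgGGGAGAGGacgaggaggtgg
Fxyd3: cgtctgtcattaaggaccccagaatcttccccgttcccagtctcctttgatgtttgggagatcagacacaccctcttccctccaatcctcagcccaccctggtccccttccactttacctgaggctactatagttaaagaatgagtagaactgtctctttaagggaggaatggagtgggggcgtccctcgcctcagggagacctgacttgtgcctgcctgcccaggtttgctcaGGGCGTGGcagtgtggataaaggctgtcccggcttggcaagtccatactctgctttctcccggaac
Upk3a: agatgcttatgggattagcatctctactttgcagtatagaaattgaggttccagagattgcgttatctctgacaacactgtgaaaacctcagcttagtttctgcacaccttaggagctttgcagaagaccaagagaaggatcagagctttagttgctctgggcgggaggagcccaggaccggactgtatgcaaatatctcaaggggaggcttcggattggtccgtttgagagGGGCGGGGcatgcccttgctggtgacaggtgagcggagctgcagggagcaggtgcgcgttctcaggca
Krt18: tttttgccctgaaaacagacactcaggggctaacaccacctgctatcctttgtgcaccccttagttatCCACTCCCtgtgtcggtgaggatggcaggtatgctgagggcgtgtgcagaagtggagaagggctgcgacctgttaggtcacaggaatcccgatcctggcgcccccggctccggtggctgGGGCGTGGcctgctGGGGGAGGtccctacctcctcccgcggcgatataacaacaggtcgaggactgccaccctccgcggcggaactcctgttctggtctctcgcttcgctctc
The single FOXA match among these 4 is in the promoter of Foxa1 itself. Promoters of 1 chromosome were left out, and only windows of 300 bases were used. Of the 39 called genes, 27 had a promoter among these. The FOXA string was in 1 of the 27 (3.7%), against 2.74% of promoters of tested genes and 3.55% of the 27025 promoters used. The Krüppel-like string was in 17 of the 27 (63%), against 68.4% and 49.1%. No match of the 2 strings overlapped in the 4 promoters. A match is only a description of the letters in this window.

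The thin limbs of the loop of Henle run through the inner medulla. Of 8 tested thin limb markers, 2 rose and 0 fell, against 0.300% and 0.00769% of all genes, and the median was 1.24. Both medulla arrays were above both cortex arrays for 6, against 23.9% of all genes. Slc14a2 enters these figures by the dimmer of its probe sets in tissue, described below. Fst, which encodes the activin-binding protein follistatin, had 10.22 and 8.61 in medulla, against 6.02 and 7.24 in cortex, and rose by 2.60 ± 0.42 (adjusted p = 0.0303). Bst1, an ADP-ribosyl cyclase of the cell surface, had 9.99 and 8.13 in medulla, against 6.36 and 6.43 in cortex, and rose by 2.48 ± 0.41 (adjusted p = 0.0332). Medulla 1 was the higher medulla array for both. The call of Fst was lost without medulla 1 (adjusted p = 0.131) and without cortex 1 (adjusted p = 0.330). That of Bst1 was lost without cortex 1 (adjusted p = 0.264) and without cortex 2 (adjusted p = 0.130). Aqp1, the water channel of descending thin limbs and of proximal tubules, had 14.00 and 13.90 in medulla, against 13.63 and 13.83 in cortex, a difference of 0.22 ± 0.30 (adjusted p = 0.959). Slc4a11, a membrane transporter of thin limbs, differed by 1.12 ± 0.25 (adjusted p = 0.109) and Sptssb, a subunit of the enzyme that starts sphingolipid synthesis, by 2.33 ± 0.48 (adjusted p = 0.0784).

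The urea transporters turned on the probe set. Slc14a2 encodes the UT-A transporters of the inner medullary collecting duct and thin descending limb. The probe set used for it, chosen as the brighter over all 12 arrays, read 6.35 and 6.57 in medulla, against 5.45 and 6.66 in cortex, and differed by 0.32 ± 0.55 (adjusted p = 0.972). The other Slc14a2 probe set, the brighter in tissue, read 12.69 and 10.83 in medulla, against 5.57 and 5.49 in cortex, and at most 5.01 in the cultures. With the probe set brightest in tissue the difference was 5.82 ± 0.50 (adjusted p = 0.000536), and with the mean of both probe sets 3.07 ± 0.39 (adjusted p = 0.00716). The first value, of a probe set near the array median on all tissue arrays, is thus no measure of how much Slc14a2 the medulla held. Slc14a1, the UT-B transporter of the vasa recta and red cells, had 8.73 and 7.08 in medulla, against 3.92 and 5.23 in cortex, a difference of 2.69 ± 0.52 that missed the threshold (adjusted p = 0.0656). Its other probe set read 9.75 and 7.63 in medulla, against 4.49 and 5.31 in cortex, and passed at 3.25 ± 0.58 (adjusted p = 0.0478). Under the rule of the probe set brightest in tissue, Slc14a2, Slc14a1 and Esyt3 were called in addition to 38 of the 39 genes.

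Cells of the medulla take up or make organic osmolytes to balance the salt and urea outside them. Of 13 tested genes of osmolyte and urea handling 2 rose and 0 fell, against 0.300% and 0.00769% of all genes. The median was 0.79. Both medulla arrays were higher for 7, against 23.9% of all genes. These figures also use the Slc14a2 probe set that is dimmer in tissue, not the one that gave 5.82 ± 0.50. Slc5a3, the sodium-coupled myo-inositol transporter, had 13.98 and 13.49 in medulla, against 12.52 and 12.78 in cortex, and rose by 1.08 ± 0.15 (adjusted p = 0.0124). Hspa1b, an inducible heat shock protein of the HSP70 family, had 13.66 and 12.95 in medulla, against 11.94 and 12.26 in cortex, and rose by 1.20 ± 0.21 (adjusted p = 0.0381). The groups did not overlap for either, and the 2 other bright probe sets of each gene had the same sign, between 1.02 and 1.21. The call of Slc5a3 was lost without medulla 1 or cortex 1 (adjusted p = 0.0787 and 0.202) and that of Hspa1b without medulla 1, cortex 1 or cortex 2 (adjusted p = 0.251, 0.435 and 0.0895). With the mean of probe sets both were lost (adjusted p = 0.0923 and 0.0943), and Hspa1b also under quantile normalization (adjusted p = 0.0756). Hspa1a and Hspa1b are near-identical copies, so their signals may be shared. Nfat5, the factor that switches on osmolyte genes under hypertonic stress, had 9.99 and 9.34 in medulla and 8.69 and 8.81 in cortex (0.89 ± 0.21, adjusted p = 0.134). Cryab, a small heat shock protein, had 13.60 and 12.33 in medulla and 11.32 and 11.88 in cortex (1.36 ± 0.31, adjusted p = 0.117). The taurine transporter Slc6a6 differed by 0.05 ± 0.13 (adjusted p = 0.978). Slc6a12, the betaine transporter, lay below the brightness filter, with 3.02 and 3.26 in medulla and 1.40 and 2.95 in cortex, and Akr1b3, the aldose reductase gene, was not analysed here.

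Among genes of energy metabolism, glycolysis held the called ones. Of 17 tested genes of glycolysis 2 rose and 0 fell, against 0.300% and 0.00769% of all genes, with a median of 0.18. Hk1, the hexokinase that commits glucose to the cell, had 12.75 and 12.23 in medulla, against 11.31 and 11.57 in cortex, and rose by 1.04 ± 0.18 (adjusted p = 0.0347). Aldoc, an aldolase isoform, had 11.57 and 10.62 in medulla, against 8.85 and 9.34 in cortex, and rose by 1.98 ± 0.34 (adjusted p = 0.0347). Another bright probe set of Hk1 read 9.73 and 8.25 in medulla, against 8.09 and 8.35 in cortex, with overlapping groups (0.75 ± 0.44, adjusted p = 0.783). With the mean of probe sets the calls of Hk1 (0.90, adjusted p = 0.374) and Aldoc (1.83, adjusted p = 0.0923) were lost. The call of Hk1 was lost without medulla 1, cortex 1 or cortex 2 (adjusted p = 0.262, 0.422 and 0.0864), and so was that of Aldoc (adjusted p = 0.353, 0.422 and 0.0895). Pfkp (0.91 ± 0.21), Slc2a1 (0.80 ± 0.20) and Pkm (0.53 ± 0.14) had both medulla arrays above both cortex arrays and did not pass (adjusted p between 0.118 and 0.182). Other members went the other way: Hk2, Slc16a3, Tpi1 and Pgk1 had both medulla arrays below both cortex arrays. Hk2 (-0.40 ± 0.13, adjusted p = 0.311) and Slc16a3 (-0.94 ± 0.36, adjusted p = 0.433) were lower at an unadjusted p below 0.05. None of 8 gluconeogenic genes was called by limma. All 8 differences were negative, 2 at an unadjusted p below 0.05 (2.52% of all genes), and their median was -0.42. Pcx, which makes oxaloacetate from pyruvate, had 11.81 and 12.34 in medulla and 12.73 and 12.58 in cortex (-0.58 ± 0.25, adjusted p = 0.533). Respiratory chain and citrate cycle genes differed little, with 0 of 13 called, 0 at an unadjusted p below 0.05 and a median of -0.07. The 18 genes of fatty acid oxidation had 0 called, 1 higher at an unadjusted p below 0.05 (6.52% of all genes) and a median of -0.16.

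**Figure D3:**
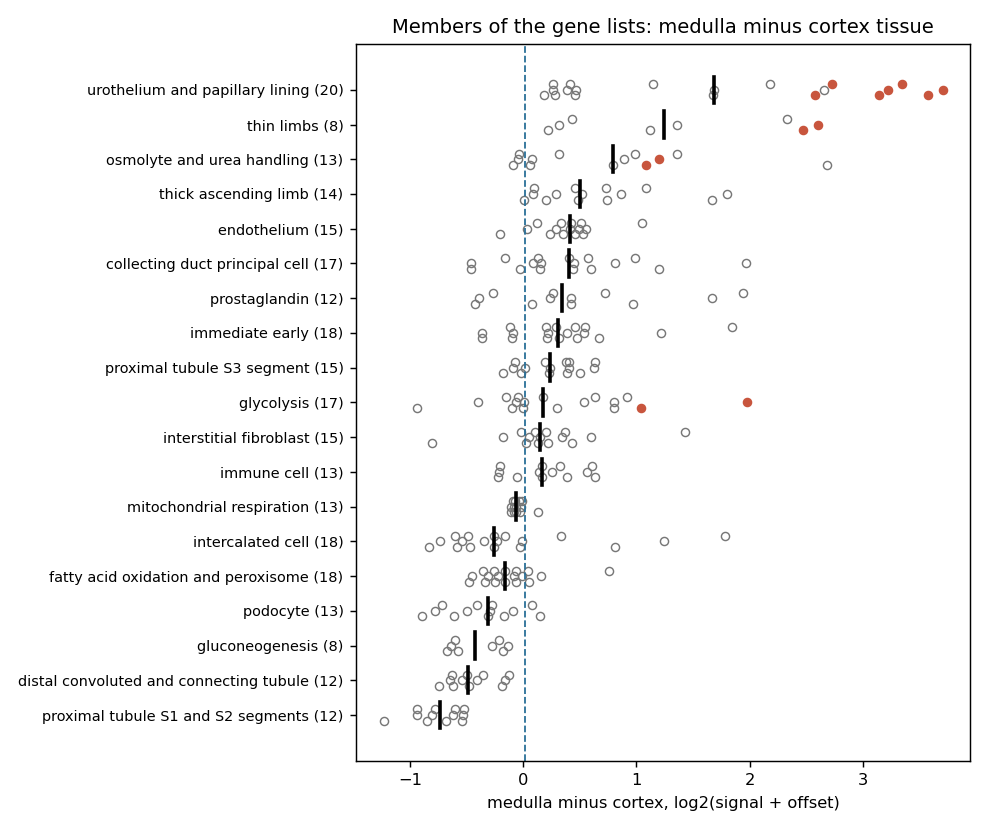
Medulla minus cortex difference on the log2(signal + offset) scale for each tested member of 19 gene lists; filled points were called higher, black bars are list medians and the dashed line is the median of all genes tested. Lining, thin limb and osmolyte genes have medians of 1.68, 1.24 and 0.79, and the S1 and S2 proximal tubule and distal convoluted and connecting tubule lists medians of -0.74 and -0.49.

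No marker of the thick ascending limb, which pumps salt out of the filtrate, passed in limma. Of 14 tested, 5 were higher and 0 lower at an unadjusted p below 0.05, against 6.52% and 2.52% of all genes. The median was 0.50. Both medulla arrays were above both cortex arrays for 10 and below both for 0, against 23.9% and 21.1% of all genes. Tmem207 had 11.29 and 10.31 in medulla and 8.68 and 9.24 in cortex (1.80 ± 0.36, adjusted p = 0.074). Ptger3, a prostaglandin E receptor, had 13.04 and 11.76 in medulla and 10.63 and 10.82 in cortex (1.67 ± 0.58, adjusted p = 0.38). Bright markers had smaller differences: the salt cotransporter Slc12a1, target of loop diuretics, had 14.74 and 14.47 in medulla and 14.07 and 14.22 in cortex (0.46 ± 0.30), and uromodulin, Umod, had 15.11 and 15.11 in medulla and 14.97 and 15.08 in cortex (0.09 ± 0.19).

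Collecting duct principal cells, which move water and sodium under hormonal control, gave 0 of 17 genes called and a median of 0.40. At an unadjusted p below 0.05, 5 were higher and 0 lower, against 6.52% and 2.52% of all genes. Aqp2, the vasopressin-regulated water channel, had 12.56 and 11.43 in medulla and 11.13 and 11.23 in cortex (0.81 ± 0.35, adjusted p = 0.518). Aqp3, the water channel of the opposite membrane, had 12.21 and 11.63 in medulla and 11.79 and 11.73 in cortex (0.16 ± 0.40), with overlapping groups. The sodium channel subunits Scnn1b (-0.46 ± 0.43) and Scnn1g (-0.16 ± 0.31) had negative differences. Elf5, a factor of principal cells, differed by 1.97 ± 0.52 (adjusted p = 0.194).

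Intercalated cells, which secrete acid or base, gave 0 of 18 genes called by limma. Of the 18, 4 had both medulla arrays higher, against 23.9% of all genes, and 10 had both lower, against 21.1%. At an unadjusted p below 0.05, 3 were higher and 1 lower, against 6.52% and 2.52% of all genes. Slc26a7 (10.01 and 8.42 in medulla, 7.44 and 7.27 in cortex) differed by 1.78 ± 0.47, Aqp6 by 1.24 ± 0.47 and the acid-secreting cells' anion exchanger Slc4a1 by 0.81 ± 0.37. Slc26a4, the base-secreting cells' exchanger pendrin, had 10.63 and 11.64 in medulla and 12.04 and 11.71 in cortex (-0.74 ± 0.29, adjusted p = 0.445).

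Proximal tubule genes were bright in the medulla arrays. The sodium phosphate cotransporter Slc34a1 had 13.82 and 14.43 in medulla and 14.48 and 14.59 in cortex (-0.41 ± 0.34, adjusted p = 0.879), and the endocytic receptor megalin, Lrp2, had 13.30 and 13.48 in medulla and 13.73 and 13.66 in cortex (-0.31 ± 0.41). All 12 genes of the convoluted S1 and S2 segments, which lie mainly in cortex, had negative differences. Both medulla arrays were below both cortex arrays for 11 and above both for 0, against 21.1% and 23.9% of all genes. Limma called 0 of them, with 3 lower at an unadjusted p below 0.05 (2.52% of all genes), and the median was -0.74. The glucose transporter Slc5a2, target of gliflozin drugs, had 12.60 and 13.55 in medulla and 13.71 and 13.70 in cortex (-0.62 ± 0.39). Prodh2, an enzyme of hydroxyproline breakdown, had 8.69 and 9.51 in medulla and 10.55 and 10.16 in cortex (-1.23 ± 0.34, adjusted p = 0.215). The 15 genes of the straight S3 segment, which reaches into the outer medulla, had a median of 0.24. Of these, 8 had both medulla arrays higher and 0 both lower, against 23.9% and 21.1% of all genes. Limma called 0, with 2 higher at an unadjusted p below 0.05 (6.52% of all genes). Agt, the angiotensin precursor, differed by 0.62 ± 0.28, Slc7a13, a transporter of acidic amino acids, by 0.40 ± 0.44 and Slc5a1, the glucose transporter of this segment, by -0.09 ± 0.18.

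The distal convoluted and connecting tubules, which lie in cortex, gave 12 negative differences of 12 with a median of -0.49. Both medulla arrays were below both cortex arrays for 10 of them, against 21.1% of all genes. Limma called 0, with 0 at an unadjusted p below 0.05. The thiazide-sensitive cotransporter Slc12a3 had 11.76 and 12.76 in medulla and 12.78 and 13.01 in cortex (-0.63 ± 0.46), and the calcium-binding protein Pvalb had 9.01 and 10.10 in medulla and 10.37 and 10.26 in cortex (-0.74 ± 0.37). Podocyte genes, which belong to glomeruli, had a median of -0.31, with 0 of 13 called and 0 at an unadjusted p below 0.05. The slit-diaphragm protein nephrin, Nphs1, had 8.06 and 8.58 in medulla and 9.16 and 9.33 in cortex (-0.89 ± 0.51). Endothelial genes had a median of 0.41, with 0 of 15 called and 1 higher at an unadjusted p below 0.05 (6.52% of all genes). Both medulla arrays were higher for 7 of the 15, against 23.9% of all genes. The fenestrated-endothelium protein Plvap had 12.36 and 11.74 in medulla and 11.34 and 12.06 in cortex (0.35 ± 0.38), with overlapping groups.

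Ikbke, a kinase of innate immune signalling, was the 1 gene called lower. Its signal was 4.10 and 3.92 on the medulla arrays, against 6.25 and 5.97 on the cortex arrays, a difference of -1.43 ± 0.23 (adjusted p = 0.0272). The cortex values stood near the array median and the medulla values below it. The call was lost with an offset of the median signal (adjusted p = 0.146) and without any 1 array other than medulla 2. In all, 66 genes had differences of at least 2-fold downward, Ikbke included, and 223 upward.

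Several called genes outside the lists, named after their values were seen, had the following values. Nupr1, a stress-induced nuclear protein, had 10.12 and 9.40 in medulla, against 7.21 and 7.40 in cortex, and rose by 2.35 ± 0.22 (adjusted p = 0.000848). Wnt7b, a Wnt ligand that collecting ducts need in the mouse to form a medulla, had 9.24 and 8.19 in medulla, against 7.24 and 6.78 in cortex, and rose by 1.60 ± 0.27. S100a6, a calcium-binding protein, had 11.09 and 11.30 in medulla, against 9.56 and 9.81 in cortex, and rose by 1.5 ± 0.19. The junction protein cingulin, Cgn, rose by 0.95 ± 0.17 and the cytoskeletal linker dystonin, Dst, by 0.74 ± 0.13, the smallest called difference. Another probe set above the filter gave -0.35 ± 0.56 for Cgn and 0.43 ± 0.30 for Wnt7b, and neither was called. Those of Dst gave 1.64, 0.76 and 0.85 and were not called, and that of Nupr1 gave 2.10 ± 0.21 and was called. Of the 4 fits that each left out 1 array, S100a6 was called in 3 and Wnt7b, Cgn and Dst in 1 each. Other bright probe sets existed for 22 of the 39 genes. Of these 36 probe sets, 31 had the same sign as the one used, 3 were called the same way and 0 the opposite way.

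The 2 medulla arrays departed from cortex in the same direction by each list median below, but by different amounts. For the 20 lining genes the median difference from the cortex mean in deposited log2 signal was 1.42 on medulla 1 and 2.89 on medulla 2, and medulla 2 was the higher for 13. Thin limb genes gave 1.67 on medulla 1 and 0.85 on medulla 2, and thick ascending limb genes 0.80 and 0.30. For the S1 and S2 genes the medians were -1.20 on medulla 1 and -0.30 on medulla 2, and medulla 2 was the higher for 12 of 12. Distal convoluted and connecting tubule genes gave -0.83 on medulla 1 and -0.17 on medulla 2. By these medians medulla 1 lay farther from cortex for the 4 tubule lists and medulla 2 for the lining list. At least 2-fold from the cortex mean were 1115 genes on medulla 1 and 637 on medulla 2.

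**Figure D4:**
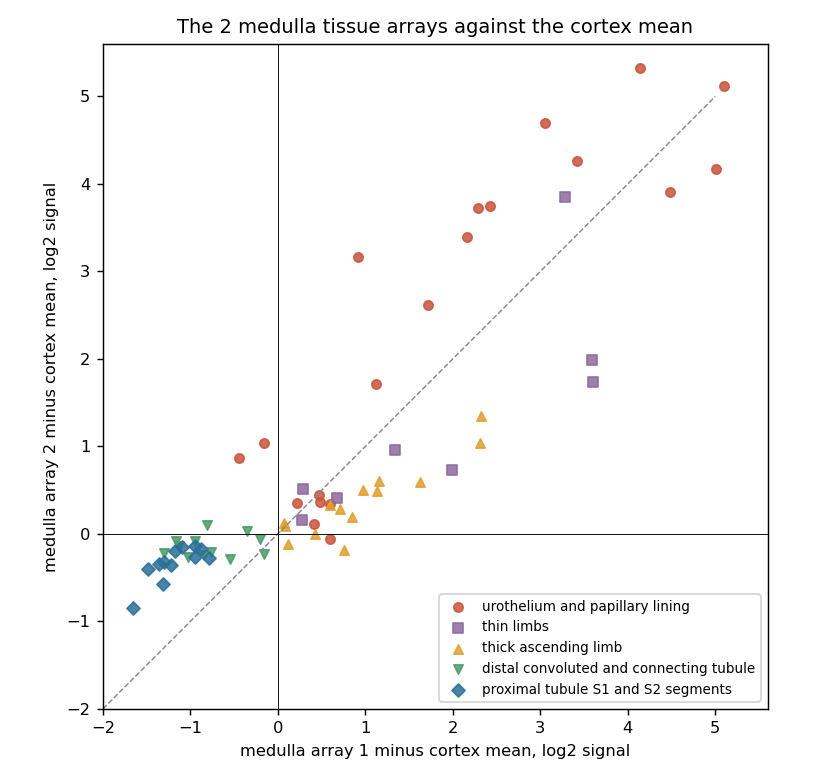
Difference from the mean of the 2 cortex arrays in deposited log2 MAS5 signal on medulla array 1 (horizontal axis) and medulla array 2 (vertical axis), 1 point per gene of 5 lists; the dashed line marks equal differences. Most lining genes lie above the line, most thin and thick limb genes below it, and the S1 and S2 genes, medians -1.20 and -0.30, above it at negative values.

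The array left out changed how much was called. Without medulla 2 there were 196 genes higher (1.51% of genes tested), 38 of the 39 among them, and 25 lower. Without medulla 1 there were 22 higher (0.169%), 17 of the 39 among them, and 0 lower. Without cortex 1 there were 9 higher (0.0692%), 8 of the 39 among them, and without cortex 2 there were 21 higher (0.162%), 16 of the 39 among them. In each of these 4 fits the region left with 1 array is assumed to vary like the other groups. Without medulla 2, where 1.51% of all genes were called higher, called members were 7 of 13 osmolyte and urea genes, 6 of 17 of glycolysis, 6 of 20 lining genes, 3 of 8 of the thin limbs, 3 of 14 of the thick ascending limb and 4 of 18 immediate early genes. In that fit Slc14a1 gave 3.46 ± 0.52, Egr1, an immediate early factor, 2.58 ± 0.22, Cryab 1.99 ± 0.21, Nfat5 1.21 ± 0.21 and Slc2a1 1.19 ± 0.15. Slc26a4 was among those lower in it, at -1.24 ± 0.26. Without medulla 1, called members were 7 of the lining list, 1 of the thin limbs and 0 of the osmolyte and glycolysis lists. Without cortex 1 they were 3 of the lining list and 0 of the thin limb, osmolyte and glycolysis lists. No S1, S2, S3 or distal tubule gene was called in any of the 4 fits. Corin, Psca, Sprr1a, Foxa1, Fxyd3, Klf5 and Nupr1 were called whichever of the 4 arrays was left out. Those fits still pooled the spread with the culture arrays. In a fit of the 4 tissue arrays alone 0 genes were called, and the smallest adjusted p was 0.111. The call of Klf5 was also lost with the mean of its probe sets (0.66, adjusted p = 0.429).

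Markers of neighbouring tissues that dissection can carry over, and of immune cells, ranged from dim to bright. For the counts below, 6.52% of all genes were higher at an unadjusted p below 0.05. Of 11 adrenal genes 8 lay below the brightness filter, and the mean log2 signal of the 3 tested was 5.24 and 4.44 in medulla, against 5.61 and 5.14 in cortex. Of 6 fat cell genes analysed 4 lay below it, among them Adipoq, which had 6.89 and 5.31 in medulla and 2.43 and 2.18 in cortex. The mean of the 2 fat cell genes tested was 9.24 and 8.28 in medulla, against 8.28 and 7.61 in cortex. Of these, Fabp4 read 11.67 and 11.11 in medulla and 10.93 and 10.78 in cortex. Retn read 6.81 and 5.44 in medulla and 5.64 and 4.43 in cortex. Nerve and Schwann cell genes had 3 tested, 0 called by limma, 1 higher at an unadjusted p below 0.05, and means of 8.23 and 8.13 in medulla, against 8.05 and 7.53 in cortex. Skeletal muscle genes had 3 tested, 0 called by limma, 1 higher at an unadjusted p below 0.05, and means of 6.75 and 6.82 in medulla, against 6.58 and 6.57 in cortex. Immune cell genes had 13 tested, 0 called, 1 higher at an unadjusted p below 0.05, and means of 8.99 and 8.56 in medulla, against 8.32 and 8.81 in cortex. The part of these cells in the results was not tested. Xist, made from the inactive X chromosome, read 12.11 and 13.09 in medulla and 12.36 and 12.59 in cortex, and 3 Y-linked genes stayed at or below 5.37 on all 4 arrays; the Xist values of the regions overlapped.

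The comparison with progenitor cells and organoids sets the genes called in tissue beside the difference between medulla-derived and cortex-derived cultures. Of the 39 genes, 1 was also higher in medulla-derived progenitor cells (0.277% of all genes were) and 0 lower (0.0385%). In organoids 2 were higher (7.95%) and 2 lower (10.0%). The median region difference of the 39 was 2.11 in tissue, where they were chosen, -0.04 in progenitor cells and -0.09 in organoids. Tested directly in the same limma model, the region difference was larger in tissue than in progenitor cells for 11 of the 39, against 0.108% of all genes. It was larger in tissue than in organoids for 32 of the 39, against 5.23% of all genes. Because the 39 were chosen by their tissue difference, these 2 counts are a description. Plet1, the 1 gene shared with progenitor cells, differed by 1.35 ± 0.22 in tissue and 1.37 in progenitor cells. Other bright probe sets of Plet1 gave -0.42 ± 0.51 and 0.97 ± 0.33 in tissue and were not called. Upk3b and Dst, the 2 shared with organoids, differed by 3.14 and 0.74 in tissue and by 1.65 and 0.54 in organoids. Pof1b and Tcim had tissue differences of 1.48 and 0.78 and organoid differences of -0.82 and -0.83. Corin differed by 0.03 in progenitor cells and -0.01 in organoids, and Foxa1 by -0.47 and -0.16.

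**Figure D5:**
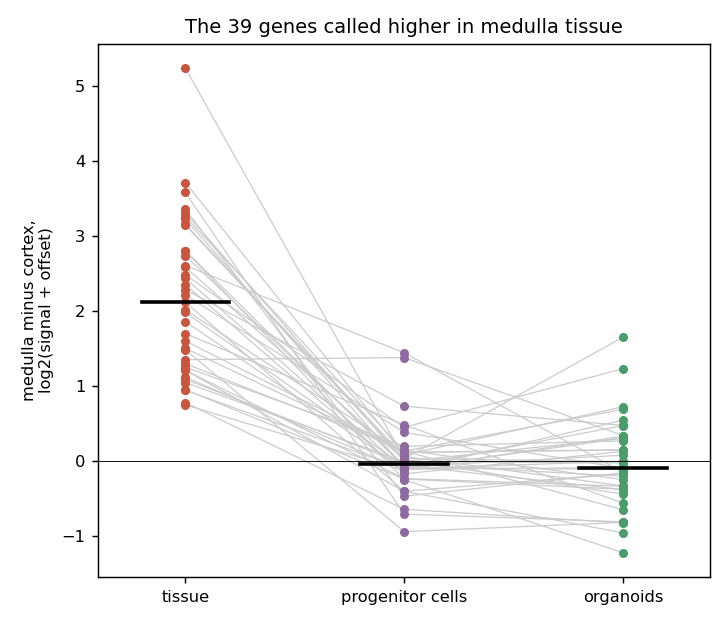
Medulla minus cortex difference on the log2(signal + offset) scale of the 39 genes called higher in medulla tissue, in tissue, progenitor cells and organoids; grey lines join a gene and black bars are medians. The medians are 2.11 in tissue, where the genes were chosen, -0.04 in progenitor cells and -0.09 in organoids.

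Over all genes, the region difference differed between tissue and progenitor cells for 35 genes (0.269%), 14 higher (0.108%) and 21 lower (0.162%) in tissue. Between tissue and organoids it differed for 1092 genes (8.40%), 680 higher (5.23%) and 412 lower (3.17%) in tissue. Across 12998 genes the region differences of tissue correlated at 0.02 with those of progenitor cells and -0.02 with those of organoids, with no array shared. In some of the largest interactions the region difference was small in tissue and large in a culture. Slc27a2, a fatty acid transporter of proximal tubule, differed by 0.00 ± 0.23 in tissue and 3.12 in progenitor cells. Enpep, a peptidase of the proximal brush border, differed by -0.48 ± 0.32 in tissue and 2.36 in progenitor cells. Mgp, an inhibitor of calcification, differed by -0.34 ± 0.25 in tissue and 4.37 in organoids, and the acute-phase gene Saa1 by 0.09 ± 0.47 in tissue and 5.01 in organoids.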

How the data were processed

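The authors deposited log2 signals per probe set for 12 arrays, made with MAS5 per the submitters' processing notes; the MAS5 version and detection calls were not used here. On every array the unlogged signals, after trimming 2% at each end, averaged 500. Of 45101 probe sets, 34945 non-control ones carried 1 gene symbol in the platform annotation, and each of 18193 genes was read from its brightest one over the 12 arrays. Genes entered the fit where 1 or more groups had both arrays over the median of their array. Values were unlogged, the offset added and log2 taken again. R 4.3.3 with limma 3.58.1 fitted 6 group means over 12 arrays (6 residual degrees of freedom, variance trend), two-sided, with Benjamini-Hochberg adjustment over 12998 genes. Precision is limited by how many arrays there are. The model was tested on simulated data.

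The members and the 35 gene lists were chosen with earlier results of these data known. Named genes are the 15 largest rises and falls that were called, at least 2-fold and without overlap of arrays, up to 6 called members per list, 5 each way per interaction, and a set of followed markers; unnamed gene models and cross-hybridizing probe sets were passed over in the rankings. Other genes of the lists were named after their values were seen. Ren1, Ptgs1, Akr1b3 and Ddx3y were not analysed here. Deviations of equally numbered medulla and cortex arrays correlated at -0.14, so replicate numbers were not taken as pairs. Alternatives covered normalization, offset, filter, probe set, samples in the fit, variance trend, replicate block and leaving out each array.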

Additional observations from a re-analysis of the deposited data

Results flagged for a closer look

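For the genes below, the medulla minus cortex difference in tissue differed from that in cultured cells by a direct test in the same limma model (adjusted p below 0.05). Each value is the tissue difference minus the culture difference, on the log2(signal + offset) scale. Genes called in tissue were chosen by their tissue difference, so for them these values are a description.

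Against progenitor cells, the difference was higher in tissue for Corin (5.20), Sprr1a (4.29), Foxa1 (3.82), Psca (3.63), Krt15 (3.32), Fxyd3 (3.13), Upk3b (3.11) and Klf5 (2.54). It was lower in tissue for the granzyme gene Gzmd (-3.67), Slc27a2 (-3.12), Sprr2f (-2.88), Enpep (-2.84) and Spink8 (-2.58). Gzmd and Sprr2f had tissue signals below the array median.

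Against organoids, the difference was higher in tissue for Corin (5.25), Sprr1a (4.39), Scel (4.02), Fxyd3 (3.91), Foxa1 (3.51), Uncx (3.49), Upk1b (3.34), Upk3a (3.12), Krt19 (3.03), Krt15 (3.00), Psca (2.99), Klf5 (2.44) and Lypd2 (2.33). It was also higher for Mycl (4.10), Rapgefl1 (3.98), the urea transporter Slc14a1 (3.41), Fst (2.76), Aldoc (1.90), Ehf (1.54), Hspa1b (1.37), Slc5a3 (1.29) and Hk1 (1.07). The highest signals of Slc14a1 and Upk1b in the cultures were 4.76 and 5.72, below the median of each culture array. Both genes also lay below the array median in cortex tissue, so their values here rest mainly on the medulla tissue arrays. The lining gene Upk3b, called higher in medulla organoids too, did not pass (1.5, adjusted p = 0.0908). Lower in tissue were Saa1 (-4.92), Mgp (-4.70), Tmem52b (-4.58), the chemokine Ccl7 (-4.38), Adam23 (-4.17), Aqp1 (-3.35), Enpep (-2.25), Spink8 (-2.02), Ikbke (-1.92), Sprr2f (-1.55) and Slc27a2 (-1.36). The difference between the stages also holds a difference in the arrays' controls: the lowest and highest median of the bacterial poly-A spikes were 7.96 and 8.48 in tissue, against 1.16 and 2.31 in organoids. Its part in these values was not tested.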

How the results depend on the processing

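The 39 genes called higher had positive differences in every alternative that tested them. Their arrays did not overlap between regions, so leaving out 1 array could not turn a sign. Fits that changed only the error kept the same differences, so the shared sign is no test of the calls. The number called was less stable. It was 23 with the mean of all probe sets, 17 without the variance trend, 21 without the organoid arrays (chosen after seeing the data) and 0 in a fit of the 4 tissue arrays alone, where 909 genes were higher and 565 lower at an unadjusted p below 0.05. Leaving out 1 array gave 9 to 196 genes higher and 0 to 25 lower. The 1 gene lower became 2 with an offset of 1, the mean of all probe sets or no variance trend, and 0 with an offset of the median signal, the tissue filter or the tissue fit alone. The progenitor interaction count of 35 was 69 in the fit of the compared groups alone or without the organoid arrays, 21 without the trend, and 17 to 120 with 1 array left out. The organoid interaction count of 1092 was 332 in the fit of the compared groups alone, and its lowest value with 1 array left out was 326 and its highest 933. With replicate number as a block, the counts were 17 higher, 0 lower, 14 and 642; the pairing of arrays by number is not stated. A crossed block, with medulla 1 paired to cortex 2 and chosen after seeing the data, gave 76 higher and 1 lower.

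Some genes that were not called in tissue changed sign with the setting. With 75th percentile scaling Slc27a2 was -0.0353 and Sprr2f -0.0149, and with the median offset Sprr2f was -0.000624. With the mean of probe sets Saa1 was -0.0745, Slc5a1 0.0181 and Xist -0.23, and with the probe set brightest in tissue Mycl was -0.57. Leaving out 1 array moved Slc27a2 between -0.16 and 0.17 (-0.13 at the other array that turned it), Sprr2f between -0.20 and 0.20 (-0.16 at the other array that turned it), Saa1 between -0.39 and 0.56 (-0.25 at the other array that turned it), Mgp between -0.77 and 0.0956, Ccl7 between -0.36 and 0.099 (0.0535 at the other array that turned it), Slc5a1 between -0.19 and 0.00401, Aqp3 between -0.13 and 0.45, Slc14a2 between -0.17 and 0.81, Plvap between -0.0114 and 0.71 and Xist between -0.37 and 0.61. The cause was not tested. The median SE of all genes was 0.25.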
